A study of Mus musculus with 18 samples.

Results

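Expression of 9 genes of the tumour necrosis factor (TNF) superfamily was followed through the maturation of thymic invariant natural killer T (iNKT) cells with and without the kinase MST1. The 9 are the receptor genes Tnfrsf25, Fas, Tnfrsf1b, Tnfrsf4, Tnfrsf9, Tnfrsf18 and Cd27 and the ligand genes Fasl and Tnfsf10. They were taken by name, as a set chosen with earlier results of these data known. Member counts set beside shares of all genes therefore describe the set and are not a test of it. Each member is represented by the brightest array probe set annotated with its symbol alone, and each had 1 such probe set. They are 9 of 13034 genes tested, and all 9 lay above the median of their own array on 18 of 18 arrays. iNKT cells are T cells with a semi-invariant receptor for lipids held by CD1d.

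Receptors of the TNF superfamily are membrane proteins that trimeric ligands cluster. Those with a cytoplasmic death domain, such as Fas and the product of Tnfrsf25 (DR3), can recruit adaptors that lead to caspases, and DR3 also signals to NF-kB. Those without one, such as OX40 (Tnfrsf4), 4-1BB (Tnfrsf9), GITR (Tnfrsf18), TNFR2 (Tnfrsf1b) and CD27, bind TRAF adaptors and act as costimulators of T cells. Fas ligand (Fasl) and TRAIL (Tnfsf10) are carried by cytotoxic lymphocytes and can trigger the death of cells that bear their receptors.

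Mst1KO cells came from C57BL/6 mice of genotype Cd4CreMst1fl/fl, in which Cre under the Cd4 promoter deletes floxed Mst1, the gene of a Hippo pathway kinase, in T-lineage cells, and WT cells from wild-type C57BL/6 mice. Cells of the thymus were sorted as CD1d tetramer-binding, TCRb-positive and CD24-negative at 3 stages: S1 lacked CD44 and NK1.1, S2 carried CD44 alone, and S3 carried both. Each genotype and stage had 3 arrays, 18 in all, and so few arrays limit how precise any value can be. The ages of the mice were not given in the labels, and whether the WT mice carried a floxed allele or Cre was not stated either. Per the design, 3 mice of each genotype were used, yet no label ties a replicate number to a mouse. The p-values therefore reflect only how far these arrays scatter, and part of that scatter may be technical.

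Levels are log2 values, differences are log2 differences ± SE from limma with 3 arrays per group, and a gene was called at a Benjamini-Hochberg adjusted p under 0.05 over all 13034 genes. Arrays of a group correlated at 0.976 to 0.986 across probe sets. Stk4, which encodes MST1, was not called between Mst1KO and WT at S1, S2 or S3 taken singly, with differences of -0.29 to -0.39 (SE 0.11 each, adjusted p 0.0767 or more). At each stage all Mst1KO arrays lay below all WT arrays, but a probe set that covers the whole transcript is a weak check of a conditional deletion. The T cell genes Cd3d, Cd3e, Cd3g and Thy1 and the iNKT regulator Zbtb16 were above their array's median on 18 of 18 arrays. Of the B cell genes, Ms4a1 and Pax5 were above it on 0, Cd79a on 1 and Cd79b on 15. Among macrophage and dendritic cell genes, C1qa, Cd68, H2-Aa and H2-Ab1 were above it on 18, C1qb on 17 and Csf1r on 16. C1qc was above it on 14, Lyz2 on 10, Adgre1 on 4 and Itgax on 3. The arrays are bulk sorts, so fewer cells of a type and less RNA per cell cannot be told apart.

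Tnfrsf25 was the member that differed between genotypes at every stage, and it was higher in Mst1KO. It read 8.33, 8.55 and 8.52 in Mst1KO S1 cells, against 7.75, 7.50 and 7.36 in WT S1 cells. At S2 it read 9.19, 8.87 and 9.04 in Mst1KO, against 8.34, 8.13 and 7.89 in WT. At S3 it read 8.21, 8.17 and 8.30 in Mst1KO, against 6.63, 7.51 and 6.82 in WT. The 3 Mst1KO arrays lay above the 3 WT arrays at each stage, and the lowest Mst1KO array at S3 was still above the highest WT array of S1. The S1 difference was 0.93 ± 0.18 (1.91-fold, adjusted p = 0.0365), the S2 difference 0.91 ± 0.18 (1.88-fold, adjusted p = 0.0204) and the S3 difference 1.24 ± 0.18 (2.36-fold, adjusted p = 0.000755). In order, the group means were 9.03 ± 0.16 (Mst1KO S2), 8.47 ± 0.12 (Mst1KO S1), 8.23 ± 0.07 (Mst1KO S3), 8.12 ± 0.22 (WT S2), 7.54 ± 0.20 (WT S1) and 6.99 ± 0.46 (WT S3, all SD, n = 3). Mst1KO S3 and WT S2 overlapped, as did WT S1 and WT S3, and the other neighbours in this order did not.

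**Figure D1:**
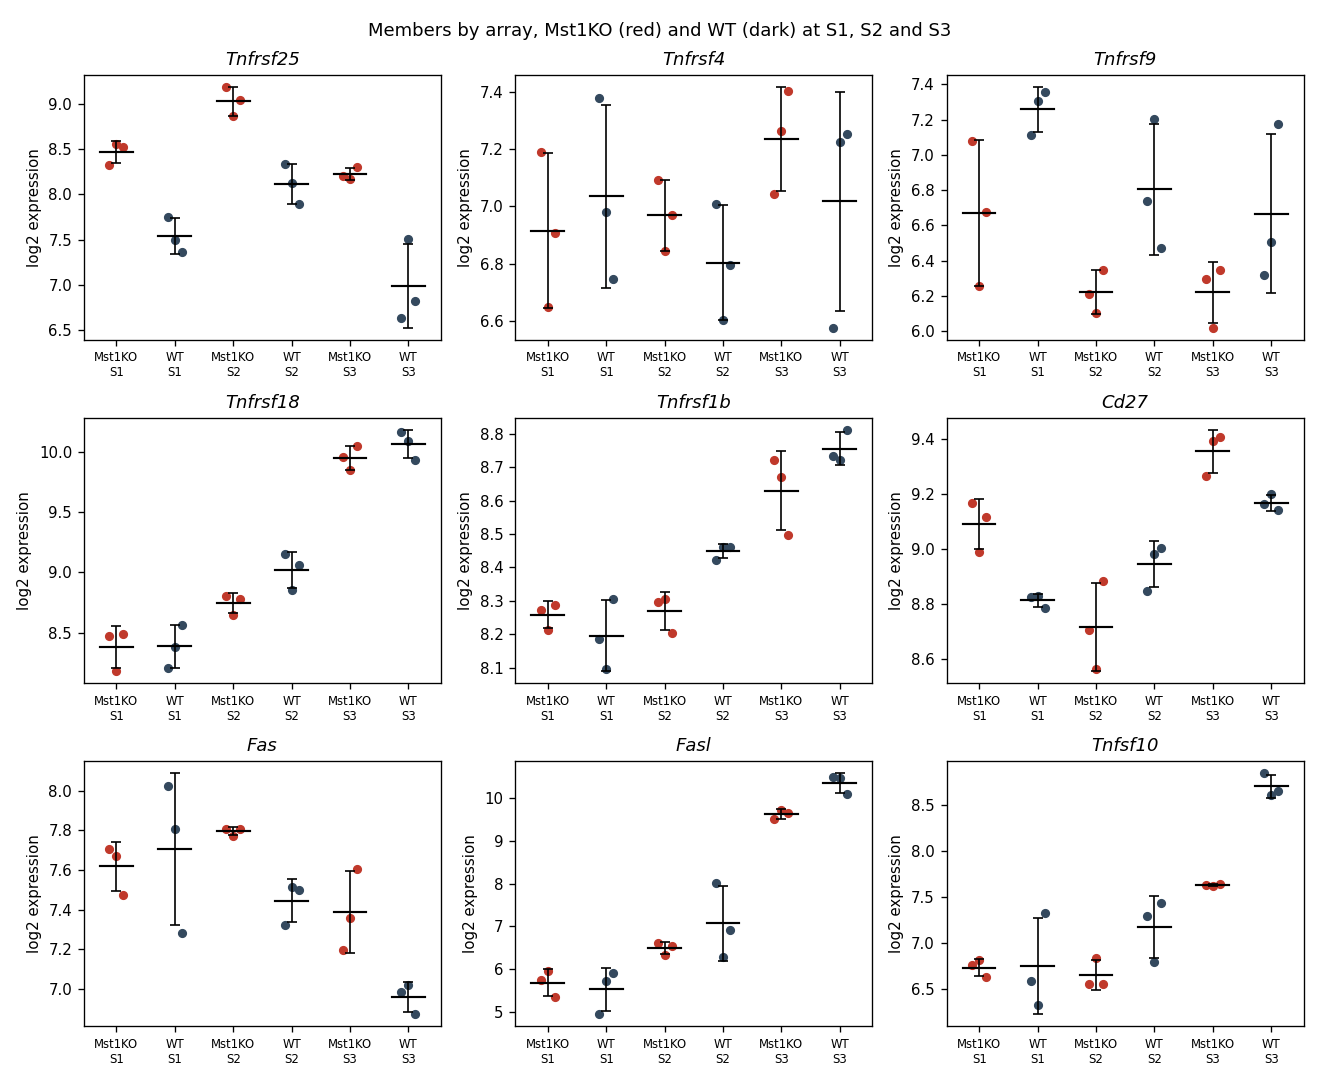
Log2 expression of the 9 members on each of the 18 arrays, 1 panel per gene, with Mst1KO beside WT at S1, S2 and S3; points are arrays, lines are group means and error bars are SD (n = 3). Tnfrsf25 lies higher in Mst1KO at all 3 stages, Tnfsf10 lies lower in Mst1KO at S3, and Fasl and Tnfrsf18 are highest at S3 in both genotypes.

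At S1 the call for Tnfrsf25 was kept in 8 of 18 fits that each left out 1 array. It was lost without any 1 of the Mst1KO S1 arrays (differences of 0.89 to 1.00, adjusted p 0.109 to 0.132) or of the WT S1 arrays (0.84 to 1.04, adjusted p 0.0535 to 0.139). It was also lost without any 1 of the Mst1KO S3 arrays or Mst1KO S2 replicate 3 (adjusted p 0.0503 to 0.0555, the difference itself not changing). At S2 the call was kept in 14 of 18 fits and lost without Mst1KO S2 replicates 1 or 3 or WT S2 replicates 2 or 3 (0.80 to 0.92, adjusted p 0.0555 to 0.0978). At S3 it was kept in 18 of 18 fits, with differences of 1.06 or more. With only the groups compared in the fit, the S1 and S2 calls were lost (adjusted p = 0.0676 and 0.0936), and the S1 call was lost with no filter on low values (adjusted p = 0.0529).

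NKT17 markers moved with Tnfrsf25 at S2 and S3 but not at S1. Of 9 NKT17 markers tested (among them Il23r, Il17re and Blk) 0 were called between genotypes at S1 with limma (2 at an unadjusted p under 0.05), 6 were higher in Mst1KO at S2 and 9 at S3. Their summed linear level was 419 to 466 in Mst1KO and 458 to 586 in WT at S1. At S2 it was 5461 to 8278 in Mst1KO and 2415 to 4118 in WT, and at S3 it was 2257 to 2506 in Mst1KO and 390 to 774 in WT. The sums of other marker lists also lay higher in Mst1KO at some or all stages. The summed level of 2 gamma-delta T cell markers was 367 to 427 in Mst1KO and 303 to 363 in WT at S1, 377 to 438 in Mst1KO and 274 to 315 in WT at S2, and 204 to 256 in Mst1KO and 141 to 153 in WT at S3. Of these, Cd163l1 was called at S2 (0.64 ± 0.12) and S3 (1.03 ± 0.12), and Sox13 at no stage. The 8 markers of conventional mature T cells on the array summed to 6763 to 7408 in Mst1KO and 5627 to 6716 in WT at S1. Of the 7 that passed the filter, 0 were called with limma and 3 had an unadjusted p under 0.05. At S2 the 8 summed to 5994 to 6465 in Mst1KO and 4874 to 6078 in WT, which overlapped. At S3 the 8 summed to 4529 to 4773 in Mst1KO and 4686 to 5254 in WT, which overlapped too, with 0 of 7 called at either stage. Macrophage and dendritic cell markers summed to 485 to 580 in Mst1KO and 426 to 663 in WT at S1. Their sums were 752 to 948 against 601 to 678 at S2 and 1211 to 1614 against 917 to 1142 at S3. Of these 10 markers, 1 was called higher in Mst1KO at each of S2 and S3. The 4 T cell genes Cd3d, Cd3e, Cd3g and Thy1 summed to 11998 to 12596 in Mst1KO and 11185 to 11550 in WT at S2, and overlapped at S1 and S3. NKT2 markers summed higher in Mst1KO at S1 (10165 to 10440 against 9053 to 10006) and S3 (3832 to 4564 against 2840 to 3670). At S2 they summed lower in Mst1KO (8106 to 8570 against 8653 to 9011). The part of these marker lists in the Tnfrsf25 differences was not tested.

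RefSeq lists Tnfrsf25 on chromosome 4 of GRCm38.p6, from 152115528 to 152120119 on the plus strand, with the table of promoter windows holding 2 start sites for it. The windows run from 250 bases before to 50 after each start, and they are shown because this is the member that differs between genotypes. Capitals mark the letters found in a search for 6 short motifs, chosen with the results known, on both strands. The windows are start 1 at chr4:152115684-152115983 and start 2 at chr4:152116093-152116392, both on the plus strand. Both lie inside the listed gene, past its first listed base at 152115528, so neither covers that end.
Tnfrsf25, start 1: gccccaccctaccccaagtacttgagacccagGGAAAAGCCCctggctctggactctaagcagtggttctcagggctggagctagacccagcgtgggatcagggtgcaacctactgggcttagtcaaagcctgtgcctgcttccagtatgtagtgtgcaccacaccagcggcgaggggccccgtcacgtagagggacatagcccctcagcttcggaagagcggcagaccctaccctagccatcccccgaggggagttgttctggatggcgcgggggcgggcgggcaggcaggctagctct
Tnfrsf25, start 2: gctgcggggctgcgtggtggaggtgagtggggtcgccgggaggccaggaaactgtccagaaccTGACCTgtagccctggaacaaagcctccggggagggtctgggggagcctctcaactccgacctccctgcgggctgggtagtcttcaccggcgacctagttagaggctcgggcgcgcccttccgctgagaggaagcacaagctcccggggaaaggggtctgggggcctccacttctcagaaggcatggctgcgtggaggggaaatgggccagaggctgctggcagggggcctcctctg
In start 1 the capitals at position -218 are an NF-kB form (GGG, any 2 bases, then TTTCC, found on the opposite strand as GGAAAAGCCC) that overlaps the NFAT core GGAAAA. In start 2 the capitals at position -187 are TGACCT, the reverse complement of the nuclear receptor half-site AGGTCA, which REV-ERB receptors bind. The NF-kB form occurs in 1.63% of 32851 promoter windows, the NFAT core in 23.4% and the half-site in 16.3%. The other motifs searched, AP-1 (TGANTCA, 7.81% of windows), T-box (GGTGTGA, 3.98%) and E-box (CACGTG, 7.15%), were not in either window. A match describes letters only, and positions count from the first base of each window's own start site as 1.

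Tnfsf10, which encodes TRAIL, was the other member called between genotypes, and it was lower in Mst1KO at S3. It read 7.63, 7.62 and 7.64 in Mst1KO S3 cells, against 8.84, 8.60 and 8.65 in WT S3 cells. The groups did not overlap, and the difference was -1.07 ± 0.20 (2.10-fold lower, adjusted p = 0.0064). The call held in 18 of 18 fits without an array. At S1 Tnfsf10 read 6.76, 6.82 and 6.63 in Mst1KO and 6.59, 6.33 and 7.33 in WT, and at S2 6.56, 6.84 and 6.56 in Mst1KO and 7.29, 6.80 and 7.43 in WT. At those stages the groups overlapped, with differences of -0.01 ± 0.20 and -0.52 ± 0.20 (adjusted p = 0.992 and 0.249).

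Fasl, which encodes Fas ligand, was highest at S3 in both genotypes. S1 cells read 5.73, 5.95 and 5.33 in Mst1KO, against 4.94, 5.72 and 5.90 in WT. S2 cells read 6.62, 6.34 and 6.54 in Mst1KO, against 8.02, 6.29 and 6.91 in WT, and S3 cells read 9.50, 9.73 and 9.64 in Mst1KO, against 10.50, 10.47 and 10.09 in WT. The genotypes overlapped at S1 and S2, while at S3 every Mst1KO array was below every WT array, but the S3 difference of -0.73 ± 0.32 was not called (adjusted p = 0.266). WT S2 replicate 1 stood above the other 2 arrays of its group. It also had the highest mean log2 level of NKT1 markers in that group, 8.21 against 7.42 and 7.95. Its mean level of NKT17 markers was the highest too, 8.46 against 8.01 and 7.76. Summed NKT1 markers (10 tested) were 14234 to 14649 in Mst1KO S3 and 17257 to 19262 in WT S3, with 2 of 10 lower in Mst1KO, and their part in the Fasl and Tnfsf10 values was not tested.

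The windows of Fasl (chr1:161788446-161788745, minus strand, printed 5′ to 3′) and Tnfsf10 (chr3:27316827-27317126, plus strand) are shown for the ligands, and that of Tnfrsf18 (chr4:156026072-156026371, plus strand) because Tnfrsf18, like Fasl, was called higher at S3 than at S2 in both genotypes. They are RefSeq windows of GRCm38.p6. Tnfrsf1b was also called higher at S3 than at S2 in both genotypes, and its window, not shown, held no match to the 6 motifs.
Fasl: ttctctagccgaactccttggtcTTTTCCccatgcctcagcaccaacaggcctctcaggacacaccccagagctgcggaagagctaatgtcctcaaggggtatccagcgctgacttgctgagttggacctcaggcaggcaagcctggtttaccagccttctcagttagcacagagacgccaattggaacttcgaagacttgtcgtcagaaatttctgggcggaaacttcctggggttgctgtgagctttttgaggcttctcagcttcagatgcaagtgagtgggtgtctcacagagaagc
Tnfsf10: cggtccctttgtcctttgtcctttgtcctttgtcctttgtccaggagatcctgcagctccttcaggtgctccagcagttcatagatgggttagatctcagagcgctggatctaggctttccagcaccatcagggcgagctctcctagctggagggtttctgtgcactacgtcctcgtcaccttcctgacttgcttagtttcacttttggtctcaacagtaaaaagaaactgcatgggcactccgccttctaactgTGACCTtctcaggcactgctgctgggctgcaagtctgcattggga
Tnfrsf18: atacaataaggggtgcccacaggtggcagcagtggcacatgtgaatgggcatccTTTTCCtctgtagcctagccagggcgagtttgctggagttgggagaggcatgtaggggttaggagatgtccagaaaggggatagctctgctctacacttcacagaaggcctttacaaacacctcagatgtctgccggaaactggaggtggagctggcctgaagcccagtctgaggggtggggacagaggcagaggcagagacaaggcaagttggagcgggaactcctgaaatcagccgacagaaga
The capitals are the NFAT core on the opposite strand (TTTTCC) at position -227 in Fasl and -196 in Tnfrsf18, and the half-site on the opposite strand (TGACCT) at position 6 in Tnfsf10. Over all 11 windows of the 9 members the NFAT core was in 6, the half-site in 3, AP-1, NF-kB and E-box in 2 each, and T-box in 0.

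Between genotypes, 1 of 9 members was called at S1, 1 at S2 and 2 at S3, against 0.33%, 1.17% and 3.4% of all genes tested. Because the members were chosen with earlier results of these data known, a larger share among them is no test of the family. The Mst1KO and WT arrays did not overlap for 3, 5 and 6 members, against 18.1%, 16.8% and 23% of all genes. The median absolute difference over the members was 0.12, 0.35 and 0.43 by stage, and over all genes 0.12, 0.12 and 0.13. On the average over stages, 1 of 9 was called, against 2.17% of all genes, and this was Tnfrsf25 at 1.03 ± 0.09 (adjusted p = 0.0027). The averaged values did not overlap for 6 members, against 23.3% of all genes. Tnfrsf9, Fasl and Tnfsf10 had averaged differences of -0.54 ± 0.12, -0.38 ± 0.09 and -0.53 ± 0.13, not called (adjusted p = 0.0685, 0.0824 and 0.0845). Leaving out a WT replicate 2 array of any stage removed all of WT replicate 2 from the average, so this was 1 fit. In it the Tnfsf10 average was -0.68 and called (adjusted p = 0.0253).

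**Figure D2:**
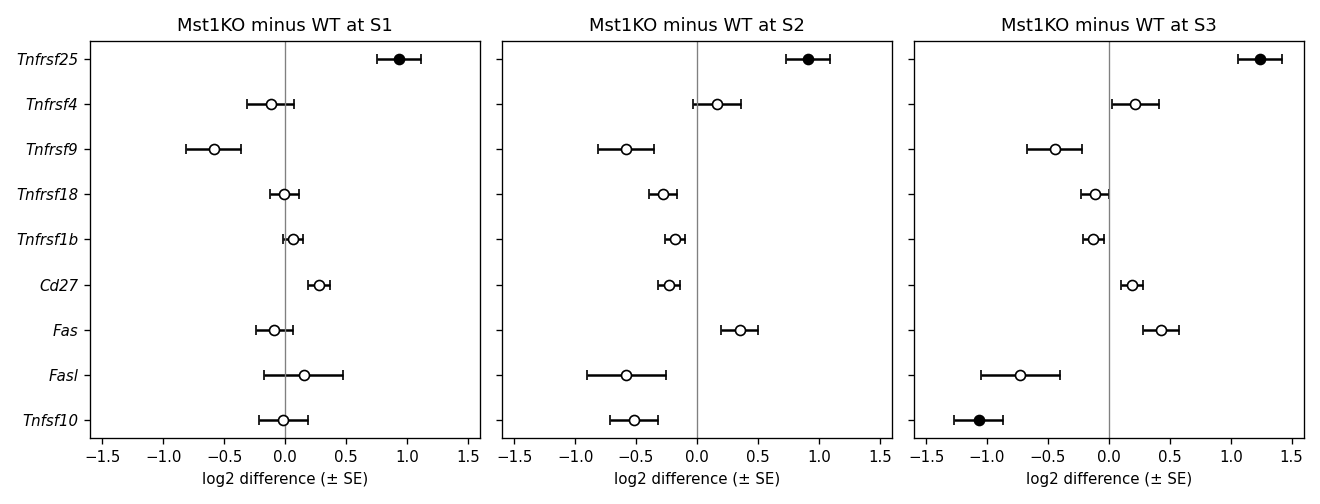
Log2 difference of Mst1KO minus WT for each of the 9 members at S1, S2 and S3, with the SE of the fit; filled points are called at an adjusted p under 0.05. Tnfrsf25 is the member called at S1 and S2, and Tnfrsf25 and Tnfsf10 are called at S3.

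Fas, the receptor of Fas ligand, read 7.71, 7.67 and 7.47 in Mst1KO S1 cells and 8.03, 7.81 and 7.28 in WT S1 cells, which overlapped. At S3 it read 7.19, 7.36 and 7.61 in Mst1KO, against 6.98, 7.02 and 6.87 in WT. Those arrays did not overlap, but the difference of 0.43 ± 0.15 was not called (adjusted p = 0.146, and 0.0442 without WT S1 replicate 3). At S2 it read 7.81, 7.77 and 7.81 in Mst1KO, against 7.32, 7.51 and 7.50 in WT, again without overlap and without a call (0.35 ± 0.15, adjusted p = 0.31).

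Tnfrsf9, the gene of 4-1BB, read 7.08, 6.26 and 6.67 in Mst1KO S1 cells, against 7.11, 7.30 and 7.36 in WT S1 cells. At S2 it read 6.21, 6.10 and 6.35 in Mst1KO and 6.74, 7.20 and 6.47 in WT. At S3 it read 6.29, 6.02 and 6.35 in Mst1KO and 6.32, 6.50 and 7.17 in WT. The groups did not overlap at S1 or S2, and they overlapped at S3, and the differences of -0.59, -0.58 and -0.45 (SE 0.23 each) were not called.

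Tnfrsf18, the gene of GITR, differed little between genotypes, by -0.0046, -0.28 and -0.11 at the 3 stages in turn (SE 0.12 each), and its groups did not overlap at S2. Tnfrsf1b, the gene of TNFR2, differed by 0.06, -0.18 and -0.13 (SE 0.08 each), and its arrays did not overlap at S2, where Mst1KO read 8.30, 8.31 and 8.20 and WT 8.42, 8.46 and 8.46, or at S3, where the highest Mst1KO array and the lowest WT array were both at 8.72. Cd27, whose product is a costimulatory receptor for CD70, differed by 0.28, -0.23 and 0.19 in the same order (SE 0.09 each), and its groups did not overlap at S1 and S3. Tnfrsf4, the gene of OX40, ranged over 6.65 to 7.40 in Mst1KO and 6.58 to 7.38 in WT and overlapped between genotypes at each stage. None of these 4 receptor genes was called between genotypes at any stage.

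Group means (log2, SD, n = 3) set the other members in order over the 6 groups. Fasl averaged 5.67 ± 0.31, 6.50 ± 0.14 and 9.62 ± 0.11 in Mst1KO through S1, S2 and S3, and 5.52 ± 0.51, 7.07 ± 0.88 and 10.35 ± 0.23 in WT. From the top its order was WT S3, Mst1KO S3, WT S2, Mst1KO S2, Mst1KO S1 and WT S1, with overlap between the S2 groups and between the S1 groups. Tnfsf10 averaged 6.74 ± 0.09, 6.65 ± 0.16 and 7.63 ± 0.01 in Mst1KO, and 6.75 ± 0.52, 7.17 ± 0.33 and 8.70 ± 0.13 in WT. Its order began with WT S3 and Mst1KO S3, and the other 4 groups overlapped from one to the next. Tnfrsf18 averaged 9.95 ± 0.10 in Mst1KO S3 and 10.06 ± 0.12 in WT S3, which overlapped as its highest groups, and its S1 groups overlapped as its lowest. Tnfrsf1b averaged 8.63 ± 0.12 in Mst1KO S3 and 8.76 ± 0.05 in WT S3, again its highest groups, and was lowest in WT S1 (8.20 ± 0.11). Cd27 was highest in Mst1KO S3 (9.35 ± 0.08) and lowest in Mst1KO S2 (8.72 ± 0.16). Fas was highest in Mst1KO S2 (7.80 ± 0.02) and lowest in WT S3 (6.96 ± 0.08), which did not overlap its neighbour, while the groups above it each overlapped the next. Tnfrsf9 was lowest in Mst1KO S3 (6.22 ± 0.18) and highest in WT S1 (7.26 ± 0.13), and every group overlapped the next. For Tnfrsf4, highest in Mst1KO S3 (7.24 ± 0.18) and lowest in WT S2 (6.80 ± 0.20), the same held.

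Between stages, 1 of 9 members was called at S2 against S1 in Mst1KO and 2 in WT, against 6.67% and 3.84% of all genes. The S2 and S1 arrays did not overlap for 5 members in each genotype, against 25.7% of all genes in Mst1KO and 19.9% in WT. Cd27 fell in Mst1KO, with 8.71, 8.56 and 8.88 at S2 against 9.16, 8.99 and 9.12 at S1 (-0.37 ± 0.09, adjusted p = 0.0179). Its arrays did not overlap, and the call was lost without Mst1KO S1 replicates 1 or 3 or S2 replicates 1 or 2, and with only the groups compared in the fit (adjusted p = 0.112). In WT, Tnfrsf18 rose, with 9.15, 8.86 and 9.06 at S2 against 8.21, 8.38 and 8.56 at S1 (0.64 ± 0.12, adjusted p = 0.00365), and Fasl rose by 1.55 ± 0.32 (adjusted p = 0.00992). The Fasl difference was 1.08 without WT S2 replicate 1, still called, and 1.26 without WT S1 replicate 1, no longer called (adjusted p = 0.0652). With only the groups compared, both WT calls were lost (adjusted p = 0.0619 for Tnfrsf18 and 0.136 for Fasl). In Mst1KO, Tnfrsf25, Tnfrsf18 and Fasl differed by 0.56 ± 0.18, 0.36 ± 0.12 and 0.82 ± 0.32 without a call (adjusted p = 0.0775, 0.0771 and 0.153). Of these, Tnfrsf25 was called without WT S3 replicate 2 (adjusted p = 0.0154) and Fasl without WT S2 replicate 1 (adjusted p = 0.0407). Both were also called with only the groups compared (adjusted p = 0.0341 and 0.0276), and Tnfrsf18 in 3 of 10 other settings (adjusted p 0.0387 to 0.0496). Tnfrsf25 in WT differed by 0.58 ± 0.18 (adjusted p = 0.0941) and was likewise called without WT S3 replicate 2 (adjusted p = 0.0192).

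From S2 on, most members changed. At S3 against S2, 6 of 9 members were called in each genotype, against 17.2% of all genes in Mst1KO and 23.6% in WT. The arrays did not overlap for 7 members in each, against 36.3% and 34.9% of all genes. Fasl rose by 3.13 ± 0.32 in Mst1KO and 3.28 ± 0.32 in WT, or 8.75- and 9.69-fold, Tnfrsf18 by 1.21 ± 0.12 and 1.04 ± 0.12, Tnfsf10 by 0.98 ± 0.20 and 1.53 ± 0.20, and Tnfrsf1b by 0.36 ± 0.08 and 0.31 ± 0.08, each with an adjusted p of 0.0122 or less. The WT call of Tnfrsf1b was lost with only the groups compared (adjusted p = 0.0724). For Tnfrsf18 this was 9.96, 9.85 and 10.05 at S3 against 8.80, 8.65 and 8.78 at S2 in Mst1KO, and 10.17, 10.09 and 9.94 at S3 against 9.15, 8.86 and 9.06 at S2 in WT, with no overlap in either genotype. Tnfrsf25 fell by 0.81 ± 0.18 in Mst1KO (adjusted p = 0.00498) and 1.13 ± 0.18 in WT (adjusted p = 0.000184). Cd27 read 9.26, 9.39 and 9.41 in Mst1KO S3 cells and 9.16, 9.20 and 9.14 in WT S3 cells. It was called in Mst1KO (0.64 ± 0.09, adjusted p = 9.26e-05) and not in WT (0.22 ± 0.09, adjusted p = 0.0863), and Fas in WT (-0.49 ± 0.15, adjusted p = 0.0255) and not in Mst1KO (-0.41 ± 0.15, adjusted p = 0.0732). With the 75th percentile filter Cd27 was also called in WT and Fas in Mst1KO (adjusted p = 0.0483 and 0.0482), and Fas in Mst1KO also with quantile normalization repeated (0.0394). The Mst1KO difference of Fas was called without WT S1 replicates 1 or 3 or Mst1KO S3 replicate 3. The WT call of Fas was lost without WT S2 replicates 2 or 3 or WT S3 replicates 1 or 3 (adjusted p 0.0547 to 0.0805). Tnfrsf4 and Tnfrsf9 were called at no step in either genotype.

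Marker genes moved over the same step. Of 10 NKT1 markers 9 rose in Mst1KO and 10 in WT, with summed linear levels of 14234 to 14649 at S3 against 3726 to 4397 at S2 in Mst1KO, and 17257 to 19262 at S3 against 4303 to 6233 at S2 in WT. This list includes Klrb1c, the gene of NK1.1, by which S3 was sorted from S2, so a higher level of that gene at S3 follows from the sort. Of 9 NKT17 markers 8 fell in Mst1KO and 9 in WT. Of 8 NKT2 markers 7 fell and 1 rose in Mst1KO, and 8 fell in WT. The 5 proliferation markers fell in both genotypes, with summed levels of 869 to 1130 at S3 against 2711 to 3154 at S2 in Mst1KO, and 594 to 1048 at S3 against 3339 to 4260 at S2 in WT. Of 4 markers of NK and innate lymphoid cells that passed the filter, 2 rose in Mst1KO and 3 in WT. All 6 on the array summed to 897 to 1182 at S3 against 204 to 231 at S2 in Mst1KO, and 1020 to 1147 at S3 against 176 to 215 at S2 in WT. Of 10 macrophage and dendritic cell markers 5 rose in Mst1KO and 4 in WT, with summed levels of 1211 to 1614 in Mst1KO S3 and 917 to 1142 in WT S3. The part of these markers in the changes of the members was not tested.

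**Figure D3:**
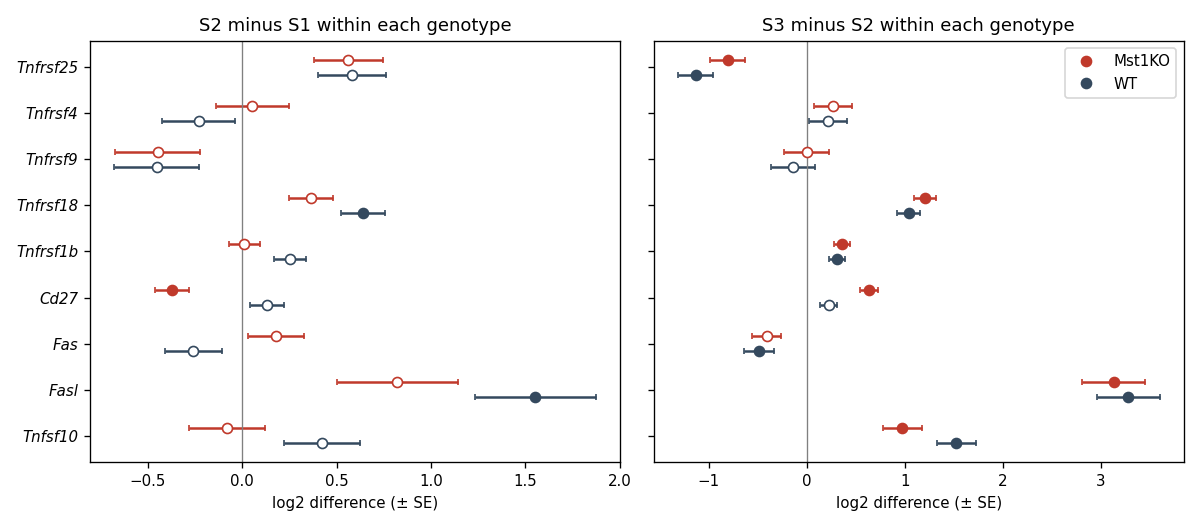
Log2 differences between stages for the 9 members in Mst1KO and WT, S2 minus S1 and S3 minus S2, with the SE of the fit; filled points are called at an adjusted p under 0.05. Fasl has the largest increase at S3 against S2 in both genotypes, and Tnfrsf25 falls in both.

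Over both steps, S3 against S1, 5 of 9 members were called in Mst1KO and 7 in WT, against 26.6% and 33.8% of all genes. The arrays did not overlap for 6 members in each genotype, against 42.6% and 44.7% of all genes. In each genotype the same 5 rose: Fasl, Tnfsf10 (0.89 ± 0.20 in Mst1KO and 1.95 ± 0.20 in WT), Tnfrsf18 (1.57 ± 0.12 and 1.68 ± 0.12), Tnfrsf1b (0.37 ± 0.08 and 0.56 ± 0.08) and Cd27 (0.26 ± 0.09 and 0.35 ± 0.09). At S3, Fasl stood 3.95 ± 0.32 above S1 in Mst1KO and 4.83 ± 0.32 above it in WT, 15.5- and 28.5-fold. These folds rest on dim S1 values, the lowest 4.94 in WT S1 replicate 1, where array medians were 4.81 to 4.93. In WT the 2 that fell were Fas (-0.75 ± 0.15) and Tnfrsf25 (-0.55 ± 0.18), the second lost without WT S1 replicates 1 or 2 or WT S3 replicates 1 or 3 (adjusted p 0.0504 to 0.146) and with only the groups compared (adjusted p = 0.102). The Cd27 call in Mst1KO was lost without Mst1KO S3 replicates 2 or 3 or Mst1KO S1 replicates 2 or 3 (adjusted p 0.0692 to 0.154). It was kept in 6 of 10 other settings, and lost with no filter, quantile normalization repeated, median centring and only the groups compared (adjusted p 0.06 to 0.107). Tnfrsf9 had a WT difference of -0.59 ± 0.23 that was not called (adjusted p = 0.0534), and it was called in 5 of 18 fits without 1 array and in 5 of 10 other settings (adjusted p 0.0375 to 0.048).

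Whether the stage change itself differed between genotypes was tested directly, and for the change over both steps this test was added after the data were seen. No member was called in any of the 3 tests with limma: S1 to S2 (0.0153% of all genes called), S2 to S3 (0.368%) and S1 to S3 (0.56%). At an unadjusted p under 0.05 there were 1, 1 and 2 members. They were Cd27 at S1 to S2 (-0.50 ± 0.13, adjusted p = 0.354) and S2 to S3 (0.41 ± 0.13, adjusted p = 0.196), and Tnfsf10 (-1.05 ± 0.28, adjusted p = 0.13) and Fas (0.51 ± 0.21, adjusted p = 0.37) at S1 to S3. The value for Tnfsf10 was -1.35 (adjusted p = 0.00611) without WT S1 replicate 3, and -1.16 (adjusted p = 0.0381) with array weights. A gene called in one genotype and not in the other is therefore not shown to change differently between them.

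**Figure D4:**
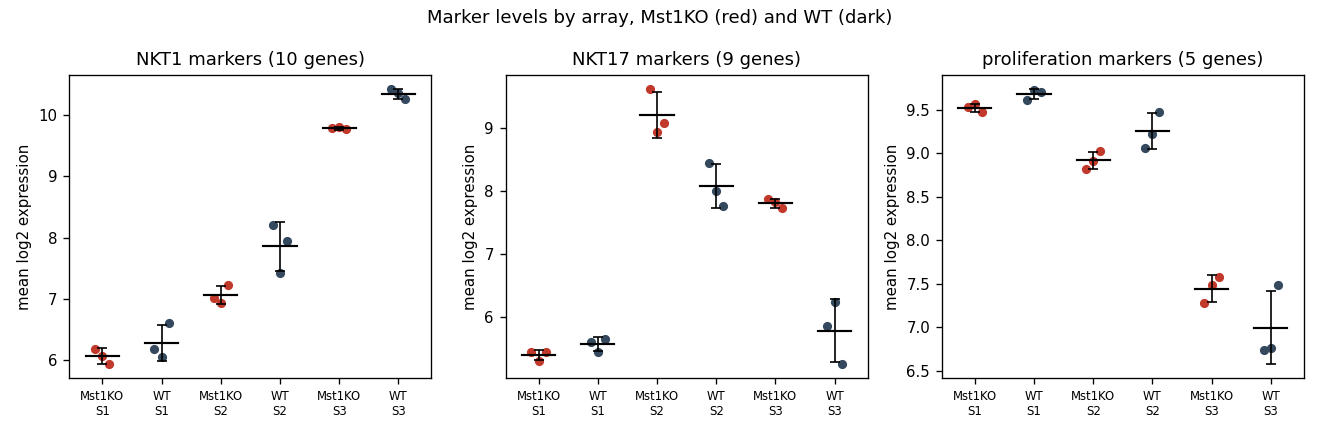
Mean log2 level per array of NKT1, NKT17 and proliferation markers, for Mst1KO beside WT at each stage; points are arrays, lines are group means and error bars are SD (n = 3). NKT17 markers lie higher in Mst1KO at S2 and S3, and proliferation markers span 7.28 to 7.57 in Mst1KO S3 and 6.74 to 7.49 in WT S3.

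Other genes of the pathway were counted in lists chosen with earlier results known. With limma, 0 of 15 other TNF receptor genes were called between genotypes at S1, S2 or S3, with 3, 0 and 1 at an unadjusted p under 0.05. Of 9 other ligand genes 0 were called either, with 2, 1 and 2 at an unadjusted p under 0.05, and at S3 Tnfsf8 had the lowest adjusted p (-0.61 ± 0.16, adjusted p = 0.0517). Of 12 death signalling genes, Ripk3, a kinase of necroptosis, was called at S3 (8.78 in Mst1KO and 8.31 in WT, 0.48 ± 0.09, adjusted p = 0.00573). Of 20 genes of TRAF and NF-kB signalling, Map3k14, the kinase of non-canonical NF-kB signalling, was higher at S1 (0.56 ± 0.10, adjusted p = 0.0213) and S2 (0.65 ± 0.10, adjusted p = 0.00568), and Rel was lower at S2 (-0.51 ± 0.11, adjusted p = 0.0313). Tnfrsf10b, the mouse TRAIL receptor gene, read 6.99 in Mst1KO S3 and 6.10 in WT S3, without a call (0.89 ± 0.27, adjusted p = 0.0864).

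At S3 against S2, 8 of the 20 TRAF and NF-kB genes rose in each genotype and 0 fell, where 17.2% of all genes in Mst1KO and 23.6% in WT were called in either direction. They included Tnfaip3, an inhibitor of NF-kB signalling (0.70 ± 0.12 in Mst1KO and 0.89 ± 0.12 in WT), and Nfkb2 (0.62 ± 0.12 in Mst1KO and 0.53 ± 0.12 in WT). Of the 9 other ligand genes, 1 rose and 1 fell in Mst1KO, and 2 rose and 1 fell in WT. Those that rose were Tnf in Mst1KO (0.84 ± 0.19), and Ltb (0.60 ± 0.10) and Tnfsf8 (0.73 ± 0.16) in WT. Tnfsf11, the gene of RANK ligand, fell by 1.31 ± 0.18 in Mst1KO and 1.26 ± 0.18 in WT. Of the ligands of the members, Tnfsf4 (for OX40) was 3.81 in Mst1KO and 3.90 in WT at S2, and was above its array's median on 4 of 18 arrays; Tnfsf15 (for DR3) was above it on 2, and Tnfsf18 (for GITR) and Cd70 (for CD27) on 0. Tnfsf9 (for 4-1BB), Tnf and Lta (both for TNFR2) were above it on 18 of 18 arrays.

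Tnfrsf1b, Tnfrsf9, Tnfrsf25, Tnfrsf4 and Tnfrsf18 lie on chromosome 4 and the other 4 members on 4 other chromosomes. Tnfrsf4 (156013595 to 156016613) and Tnfrsf18 (156026322 to 156028894) are 9708 bases apart with 1 gene between them, and Tnfrsf18 was called at S3 against S2 in both genotypes while Tnfrsf4 was not.

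As a description over the 18 arrays, which share 6 groups, the genes with the highest Pearson correlation to each member were found. For Tnfrsf25 these were Nr1d1 (r = 0.951), Fbxo27 (0.907) and Pigl (0.9). For Tnfrsf18 they were B4galnt1 (0.99), Dusp1 (0.986) and H2-Q5 (0.985), and for Fasl Itga1 (0.985), Fgl2 (0.984) and Gzmb (0.982). For Tnfsf10 they were Abcb1a (0.95), Fgd5 (0.948) and Gzma (0.947), and for Tnfrsf1b Foxn3 (0.957), Nlrc5 (0.952) and Fgd5 (0.947). For Cd27 they were Rab11fip4 (0.886), Donson (0.879) and 4833407H14Rik (0.866), and for Fas Cnn3 (0.875), Atp1b3 (0.856) and Faah (0.853). Tnfrsf9 was nearest to Sema7a (0.811), Adarb1 (0.78) and Slc27a1 (0.769), and Tnfrsf4 to Gal3st2b (0.826), Snx14 (0.785) and 4930402H24Rik (0.735).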

How the data were processed

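Total RNA of sorted cells, amplified and labelled with biotin per the labels' protocols, was measured on Affymetrix MoGene-2_0 arrays. Before the sort, thymocytes went through a CD8 microbead step that the labels' protocols call positive selection; it is uncertain whether cells with CD8 were retained or depleted. The deposited table holds log2 values. Per the submitters' processing notes, the authors used RMA and Affymetrix Expression Console 1.1. Background correction and normalization between arrays are part of RMA, so differences of dim genes are compressed. The summary level and annotation are not given in the sources used here. Values lay between 1.46 and 13.5, with array medians of 4.81 to 4.93.

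Of 41345 probe sets 23521 had 1 symbol, 1814 several and 16010 none. Those with 1 symbol and above their array's median on at least 3 of 18 arrays were kept (13702), and the brightest stood for each gene, giving 13034. limma 3.58.1 in R 4.3.3 fitted 1 mean per group, and p-values were adjusted by Benjamini-Hochberg within each comparison. For the average over stages, the 3 arrays of a genotype and number were averaged before the test, 3 values against 3. Leaving out an array there dropped all 3 arrays of its genotype and number. Named genes were the 9 members in every comparison, up to 4 genes of lowest p in each list or others with their values, Stk4, and the 3 genes most correlated with each member. The members and lists were chosen with earlier results of these data known. The fit was tested on simulated data.

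The alternatives were no filter, quantile normalization repeated, a 75th percentile filter, median centring, a variance trend with robust fit, array weights, the mean of probe sets, fits on the groups compared alone, replicate number as a fixed or random block (statmod 1.5.0), and leaving out each array. Deviations of same-numbered arrays correlated at -0.0526 to 0.206 within a genotype and -0.051 to 0.0829 across genotypes. The main fit therefore did not pair samples by number. The numbers entered only the block fits and the average over stages, whose SE, adjusted p and overlap depend on which arrays share a number. Promoter windows came from the RefSeq table of GRCm38.p6. Plots used Python 3.11.15 with pandas 2.3.3 and matplotlib 3.10.9.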

Additional observations from a re-analysis of the deposited data

How the results depend on the processing

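No called member value reversed its sign. Of the member values under the alternatives, 3131 kept their sign and their side of the threshold, 43 lost a call, 36 gained one and 48 uncalled values changed sign. Between Mst1KO and WT, the count of members called was 0 at S1 with no filter and 0 at S1 and at S2 with only the groups compared, against 1 each. For S2 against S1 it was 2 in Mst1KO, against 1, with the 75th percentile filter, with the variance trend and robust fit, with array weights and with only the groups compared (where Cd27 was lost and Tnfrsf25 and Fasl were gained), and 0 in WT, against 2, with only the groups compared. It was 1 for the S1 to S3 change, against 0, with array weights (Tnfsf10, -1.16, adjusted p = 0.0381), and for the average over stages 2 with the 75th percentile filter and 4 with the variance trend and robust fit, against 1. Under these settings it ran from 6 to 7 in Mst1KO and 5 to 7 in WT for S3 against S2, and from 4 to 5 and 6 to 8 for S3 against S1. The causes were not tested. Without 1 array, the counts ran from 0 to 1 at S1, 0 to 1 at S2, 2 to 3 at S3 and 1 to 2 for the average. For S2 against S1 they ran from 0 to 2 in Mst1KO and 1 to 4 in WT, for S3 against S2 from 6 to 7 and 5 to 6, and for S3 against S1 from 4 to 5 and 6 to 8. For the stage changes compared between genotypes they were 0, 0 and 0 to 1. The 4 members called for S2 against S1 in WT without WT S1 replicate 3 added Fas (-0.47) and Tnfsf10 (0.71). With the replicate number as a fixed or random block, the counts of members called were 1, 1 and 2 at S1, S2 and S3 as without it, and the random block correlation was 0.037. The fit on the groups compared alone and the random block were not run for the average over stages. The 3 arrays per group limit what could be called.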

Other observations

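A further probe set carried the symbols Tnfrsf18 and Gm16008 together and was not used for Tnfrsf18. It read 4.72 to 5.67, was above its array's median on 15 of 18 arrays, and was called in no comparison with limma. Its S3 against S2 differences were 0.32 ± 0.17 in Mst1KO (adjusted p = 0.216) and 0.42 ± 0.17 in WT (adjusted p = 0.104).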
